A study of Mus musculus with 8 samples.

Results

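The lymphoid priming genes examined here were Ikzf1, Ikzf2, Satb1, Dntt, Il7r, Rag1, Tcf3, Ebf1, Sox4 and Ccr9, a hand-picked set of 10 genes matched by symbol to the 15576 rows of a bulk RNA-seq count table of leukemic stem cells (LSCs). All 10 had a row, and 5 of them (Ikzf1, Ikzf2, Tcf3, Sox4 and Satb1) had enough counts to be among the 11937 genes tested, while Dntt, Il7r, Rag1, Ebf1 and Ccr9 did not. Of the 5 tested, edgeR called 1, Satb1, higher in LSCs of imatinib-treated mice and 0 lower, where 10.2% of all genes tested passed the same threshold in either direction, 6.29% higher and 3.93% lower. The call of Satb1 was lost without any 1 CML library, and without CML-TKI 1, as by limma-voom with sample quality weights, Ikzf1 was also called higher and Sox4 lower. In those settings more of all genes were called as well, 2504 of 12147 and 2563 of 11937, against 1220 of 11937 in the main fit. Without any overlap between the groups, 1 of the 5 (Satb1) was higher in every treated library and 1 (Tcf3) was lower, where 10.3% and 13.1% of all genes tested, together 23.4%, were so separated. Il7r, which was too low to be tested, was also higher in every treated library, though in CML-TKI 3 by 2 counts only, under the floor of 3 counts, in a library where a single count exceeds every CML value. Most of the signal of Rag1 and Ebf1 came from a single treated library, CML-TKI 3, and most of that of Dntt from CML-TKI 4.

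Lymphoid priming is the low-level transcription of lymphocyte genes in multipotent progenitors before they commit to the lymphoid branch. Transcription factors such as Ikaros and the E proteins open and use the enhancers of these genes, signals through the IL-7 receptor then support B and T cell progenitors, and the recombinase and terminal transferase enzymes later assemble and diversify the antigen receptor genes. Stem cells are known to carry some of the transcription factors, whereas the receptor and recombination genes are typical of committed lymphoid progenitors.

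Both groups were C57BL/6 mice of the double transgenic BCR-ABL×SCL-tTA model of chronic myeloid leukaemia (CML), so the controls carried the oncogene as well. The SCL element drives the tetracycline-controlled activator in stem and progenitor cells, and BCR-ABL is expressed once tetracycline is withdrawn. CML mice were untreated, and CML-TKI mice received the tyrosine kinase inhibitor imatinib by gavage on alternate days, at 400 mg/kg for 4 weeks by the sample labels, with 30 days in their protocol field. The study's description of the LSC RNA-seq gives a lower dose than the labels, its methods name both doses, and which dose these mice received cannot be settled here. The methods describe primary and transplanted mice, without stating to which the sequenced mice belonged or how old those were. Each group had 4 libraries of total RNA from sorted bone marrow cells, numbered 1, 2, 3 and 5 in CML and 1 to 4 in CML-TKI after the names of their columns. The labels describe the sorted cells as Lin-Sca1+cKit+ cells without Flt3 and CD150 and with CD48, whereas the paper defines LSCs as CD48-negative and CD150-positive. No source states that the libraries came from separate animals, so p-values measure the spread between these libraries, which may be technical. In bulk samples, fewer cells of a type and less RNA per cell cannot be told apart.

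Some libraries stood apart from their group. Library totals ran from 4939644 to 8620101 counts in CML and from 1041552 to 5104268 in CML-TKI, with the lowest in CML-TKI 3, where a single count equalled 1.10 CPM. CPM values are counts scaled to a common library size by TMM normalization. On the first principal component, which held 52.5% of the variance, the CML libraries lay between -74.4 and -69.3, CML-TKI 1 at -19.2 and the other CML-TKI libraries between 70.1 and 118.8. The spread between replicates was 28.2% in CML and 68.6% in CML-TKI as a biological coefficient of variation. Pairs among CML 1, CML 2 and CML 3 differed by 3.56 to 4.79 times counting noise, whereas all other pairs within a group differed by 23.9 to 60.6 times. Genes of the sort gate did not have the same level in both groups. Cd48 was higher in CML-TKI (log2 fold change 4.35, adjusted p = 8.70e-04 by the quasi-likelihood test of edgeR with Benjamini-Hochberg correction), and Slamf1, which encodes CD150, and Kit were lower (log2 fold changes -3.42 and -1.92, adjusted p = 0.00797 and 8.70e-04). Granulocyte markers summed to between 163.1 and 269.7 CPM in CML and to between 1475 and 8450 CPM in CML-TKI, with the lowest of these in CML-TKI 1, and 11 of the 12 were called higher, or between 5 and 7 without 1 CML library. Stem cell markers such as Hlf and Meis1 summed to between 1489 and 1707 CPM in CML and between 78.4 and 448.6 CPM in CML-TKI. Of the 10, 4 were called lower, where 3.93% of all genes tested were. It was 9 without CML-TKI 1, and 3 without any 1 CML library or without CML-TKI 3 or CML-TKI 4. What part these shifts have in the results on the lymphoid priming genes was not tested.

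**Figure D1:**
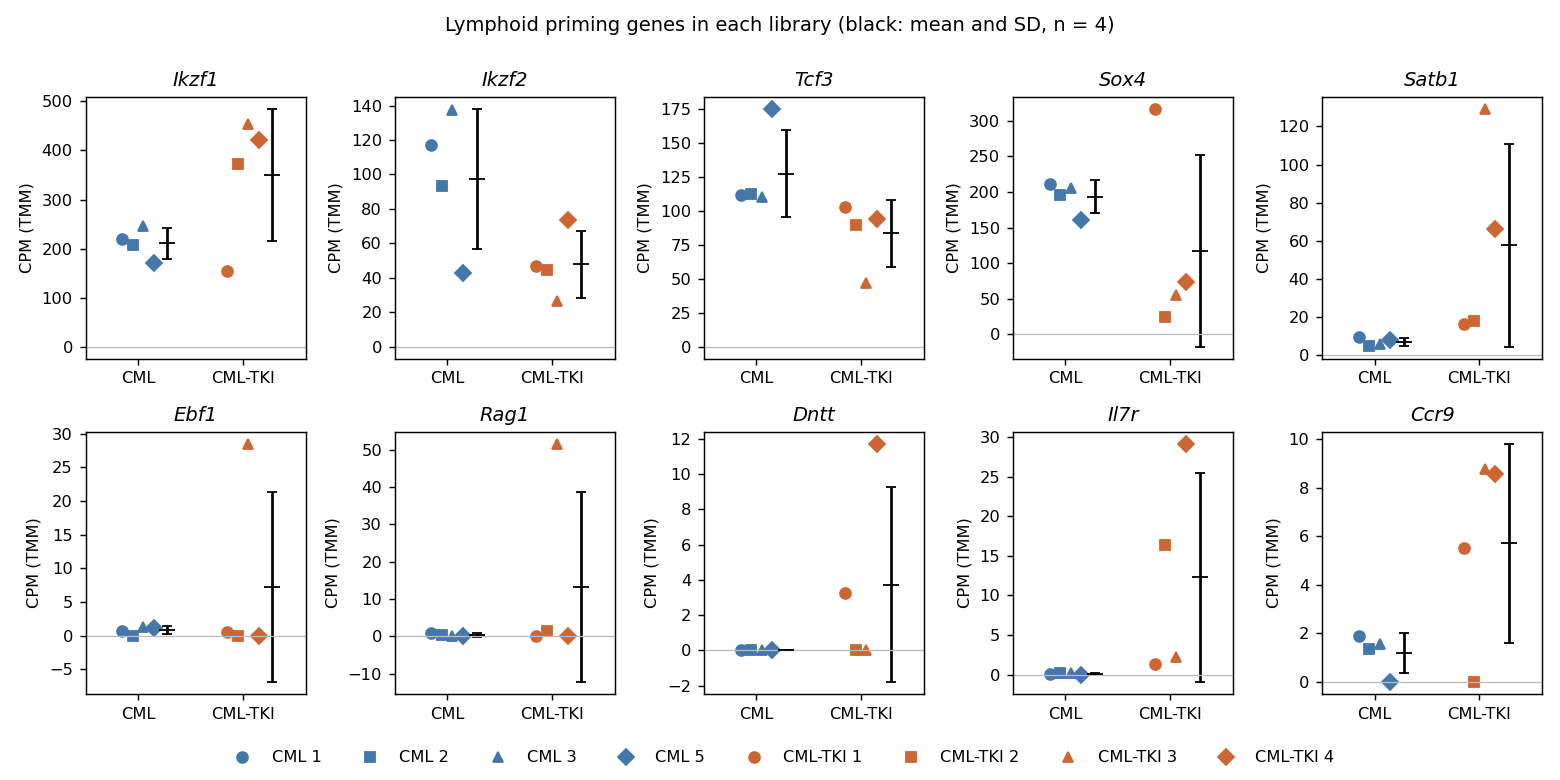
TMM-normalized CPM (vertical axis) of each of the 10 lymphoid priming genes in the 4 CML and 4 CML-TKI libraries, with the group mean and SD in black. The CML-TKI libraries lie above all CML libraries for Satb1 and Il7r (for Il7r by 2 counts in CML-TKI 3) and below them for Tcf3. Within the CML-TKI group a single library holds most of the signal of Rag1, Ebf1, Sox4 and Dntt. For Satb1 and Il7r, too, the highest CML-TKI library has more CPM than the others of its group together.

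The levels of the 10 genes in untreated LSCs fell into separate ranges. To compare genes with one another, CPM values were divided by the exon length of the gene. In CML LSCs, Sox4 had 40.3 ± 4.78 CPM per kb (SD, n = 4), Tcf3 39.8 ± 9.97 CPM per kb and Ikzf1 37.8 ± 5.65 CPM per kb, and these 3 levels differed by less than the spread between replicates. Ikzf2 followed with 10.2 ± 4.27 CPM per kb, below the other 3 by more than their spread, and Satb1 had 0.609 ± 0.183 CPM per kb. The remaining 5 genes had at most 0.215 CPM per kb. The 5 higher genes all encode transcription factors or chromatin regulators, while the receptor and recombination genes and the B lineage factor Ebf1 were low or not detected in untreated LSCs. In CML-TKI LSCs, Ikzf1 had the highest mean with 62.7 ± 24.2 CPM per kb, followed by Tcf3 with 26.02 ± 7.76 and Sox4 with 24.5 ± 28.1 CPM per kb, which did not differ beyond their spread. The order was another in CML-TKI 1, where Sox4 had 66.1, Tcf3 32.2 and Ikzf1 27.5 CPM per kb. Sox4 did not differ beyond its spread from Satb1 and Ikzf2 either, which came next with 5.02 ± 4.62 and 4.995 ± 2.04 CPM per kb. Il7r (3.47 ± 3.73 CPM per kb), Rag1 (2.01 ± 3.86), Dntt (1.75 ± 2.596), Ebf1 (1.21 ± 2.37) and Ccr9 (1.02 ± 0.732) closed the order in CML-TKI, and neighbours among these 5 did not differ beyond their spread.

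Satb1 was the tested member that changed. It encodes a chromatin organizer that binds AT-rich DNA and is needed for lymphoid development from stem cells and for thymocytes, and it lies on chromosome 17 of GRCm38 from 51736187 to 51833290. Satb1 had 9.53, 4.83, 5.80 and 7.84 CPM in CML 1, 2, 3 and 5 and 16.7, 18.3, 129.3 and 66.3 CPM in CML-TKI 1 to 4. All 4 CML-TKI libraries were higher than all CML libraries, although CML-TKI 1 and 2 stood much closer to them than CML-TKI 3 and 4. The mean rose from 6.998 ± 2.11 to 57.7 ± 53.0 CPM (SD, n = 4), and the fitted log2 fold change was 3.004 with a standard error of 0.67 (adjusted p = 0.0201 by the same test), or 8.02-fold. Without CML-TKI 3, its highest library, the log2 fold change was 2.27 (adjusted p = 0.0368). The call was lost when any 1 of the 4 CML libraries was left out (adjusted p between 0.0544 and 0.0687, log2 fold changes between 2.86 and 3.19) and when CML 1 to 3 were summed to 1 library (log2 fold change 2.90, adjusted p = 0.224).

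The promoter of Satb1 is shown because Satb1 is the member that passed the test, so that the letters around its start can be read beside its values. The sequence is the first of 5 windows that RefSeq (GRCm38.p6) gives for the gene, chr17:51833241-51833540 on the minus strand, from 250 bases before the start to 50 after it, and capitals mark the match to the E-box letters CANNTG, which E proteins such as that of Tcf3 are known to bind.
Satb1: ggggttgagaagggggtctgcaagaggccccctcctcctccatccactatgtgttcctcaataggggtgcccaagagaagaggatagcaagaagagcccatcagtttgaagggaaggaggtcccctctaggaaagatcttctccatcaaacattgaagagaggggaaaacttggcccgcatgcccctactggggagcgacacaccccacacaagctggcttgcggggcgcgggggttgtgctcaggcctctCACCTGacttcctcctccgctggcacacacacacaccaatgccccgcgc
The E-box began at the second base after the start. Over all 5 windows of Satb1, matches to CANNTG were found in 4, with 5 matches in the third window. The letters TGGGAA, the core that Ikaros proteins are known to bind, were found in the third and the fifth window and were absent from the one printed. Between the groups, the window of Satb1 was not measured, so the sequence is a description.

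Ikzf1 encodes Ikaros, the zinc finger factor that is required for the lymphoid lineages, and lies on chromosome 11 from 11684962 to 11772930. Ikzf1 had 219.9, 207.9, 246.6 and 170.6 CPM in CML 1, 2, 3 and 5 and 153.7, 371.9, 453.7 and 421.7 CPM in CML-TKI 1 to 4. CML-TKI 2, 3 and 4 were higher than every CML library and CML-TKI 1 was lower than every one. The means were 211 ± 31.6 and 350 ± 135 CPM (SD, n = 4), and the log2 fold change of 0.73 (standard error 0.32) did not pass the threshold (adjusted p = 0.185 by edgeR's quasi-likelihood test). Without CML-TKI 1 it was 0.97 and passed (adjusted p = 0.00928). It also passed with limma-voom and sample quality weights (log2 fold change 0.67, adjusted p = 0.0447).

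Ikzf2 encodes Helios, a relative of Ikaros that is found in stem cells and regulatory T cells, and lies on chromosome 1 from 69531207 to 69687351. Ikzf2 had 117.0, 93.2, 137.2 and 42.6 CPM in CML 1, 2, 3 and 5 and 46.5, 44.3, 26.3 and 73.6 CPM in CML-TKI 1 to 4. CML 5 fell among the CML-TKI libraries, and CML 1, 2 and 3 were higher than all of them. The means were 97.5 ± 40.8 and 47.7 ± 19.5 CPM (SD, n = 4), and the log2 fold change was -1.01 (standard error 0.40, adjusted p = 0.139 by edgeR's quasi-likelihood test). Over the fits that left out 1 library each, its adjusted p ran from 0.0572 to 0.328. The fitted changes of Ikzf1 and Ikzf2 thus had opposite signs, and neither passed the threshold in the main edgeR fit of all 8 libraries.

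The other Ikaros family members were compared next. Ikzf3, which encodes Aiolos, the family member of maturing B and T cells, rose from between 0 and 1.35 CPM in the CML libraries to 6.84, 10.5, 48.2 and 32.8 CPM in CML-TKI 1 to 4. Its log2 fold change was 5.64 (standard error 1.04, adjusted p = 0.00926 by edgeR's quasi-likelihood test), and the call held in all 8 fits without 1 library (adjusted p up to 0.0421). In 3 of the 4 CML libraries Ikzf3 was at or under the floor of 3 counts, so the size of the change is poorly set. The rank of the CML-TKI libraries was the same for Ikzf3 as for Satb1, with CML-TKI 3 highest and CML-TKI 1 lowest. Ikzf4, which encodes Eos, had a log2 fold change of -1.54 (adjusted p = 0.134), and Ikzf5, which encodes Pegasus, one of 0.17 (adjusted p = 0.895). Of the 10 genes in the list of Ikaros relatives and deacetylase partners, 1 was called higher and 0 lower, where 6.29% and 3.93% of all genes tested were. The median log2 fold change of the list was -0.08 against -3e-04 over all genes tested. The subunits of the deacetylase complexes with which Ikaros proteins work (Chd4, Hdac1, Hdac2, Mta2, Mbd3, Sin3a and Sin3b) had log2 fold changes between -0.53 and 0.25, and none passed, although 2 genes of the list were called lower without CML-TKI 1.

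Tcf3 encodes an E protein, a helix-loop-helix factor that starts the B cell programme, and lies on chromosome 10 from 80409541 to 80433976. Tcf3 had 112.1, 112.5, 110.0 and 175.4 CPM in CML 1, 2, 3 and 5 and 103.1, 89.3, 47.1 and 94.2 CPM in CML-TKI 1 to 4. Every CML-TKI library was lower than every CML library, although CML-TKI 1 came close to CML 1, 2 and 3. The means were 127 ± 32.0 and 83.4 ± 24.9 CPM (SD, n = 4), with a log2 fold change of -0.60 (standard error 0.28) that did not pass (adjusted p = 0.213 by edgeR's quasi-likelihood test), nor did it in any of the 20 other settings.

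The Id proteins bind E proteins and keep them off DNA. Id1 and Id2 were called higher, with log2 fold changes of 3.87 (standard error 0.79, adjusted p = 0.0139 by edgeR's quasi-likelihood test) and 3.98 (standard error 1.002, adjusted p = 0.0336). Id1 had 0.817, 1.74, 2.32 and 3.71 CPM in CML 1, 2, 3 and 5 and 83.8, 14.9, 13.2 and 13.5 CPM in CML-TKI 1 to 4. Id2 had 0.953, 1.93, 1.55 and 2.20 CPM in the CML libraries and 85.3, 8.37, 5.48 and 4.94 CPM in the CML-TKI libraries, in the same order. Both genes were higher in all CML-TKI libraries and by far highest in CML-TKI 1. Without CML-TKI 1, the log2 fold change was 2.67 for Id1 and 1.91 for Id2, the lowest of the fits without 1 library. Id3, which was too low in most libraries to be tested, had 179.7 CPM in CML-TKI 1 and between 1.04 and 1.24 CPM in the other 3 CML-TKI libraries, against 0.409 to 11.8 CPM in CML. The E protein genes Tcf4 (log2 fold change -0.50, adjusted p = 0.516) and Tcf12 (0.22, adjusted p = 0.766) did not pass. Lmo2 and Tal1, partners of E proteins in stem cells and red cell progenitors, were lower in every CML-TKI library, with log2 fold changes of -2.31 (adjusted p = 5.41e-04) and -1.76 (adjusted p = 0.0263). Of the 7 tested genes of the E protein list, 2 were thus called higher and 2 lower (6.29% and 3.93% of all genes tested), with a median log2 fold change of -0.35 against -3e-04 over all genes, and leaving out CML 1, CML 2 or CML 3 left 0 called higher and 1 lower. DESeq2 called 2 lower and gave no p for Id1 and Id2, in which it found an outlying library.

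**Figure D2:**
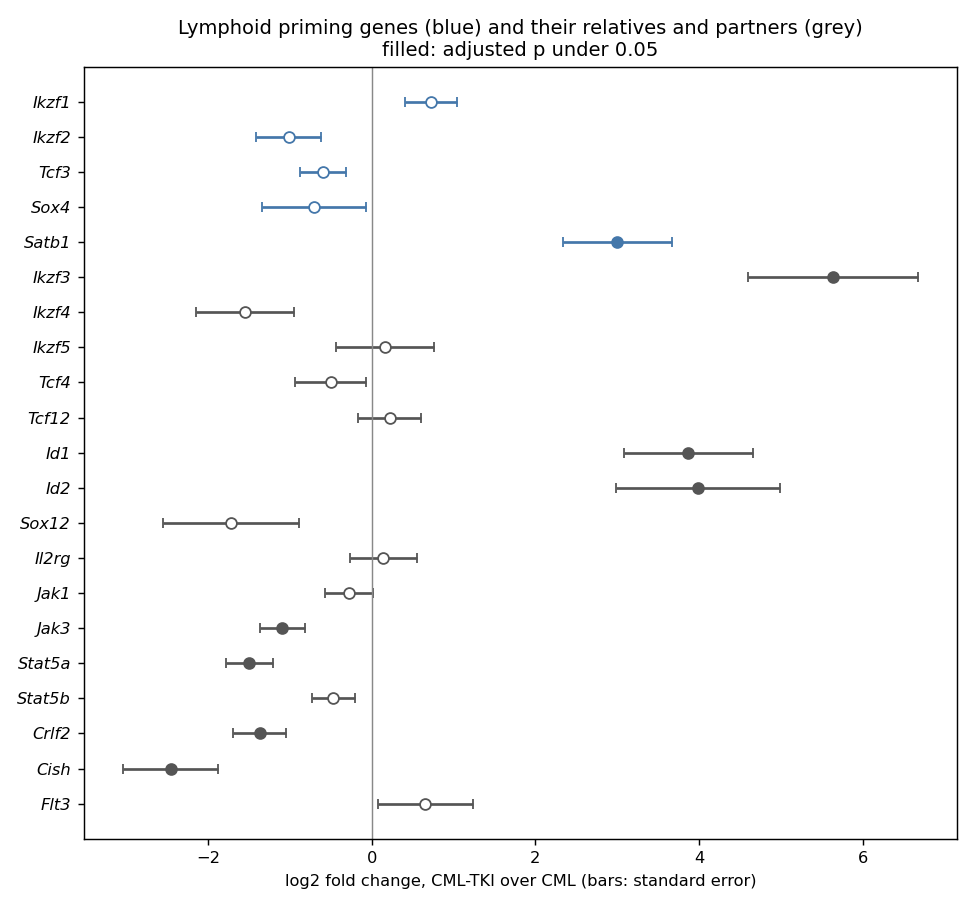
Log2 fold change of CML-TKI over CML (horizontal axis, bars are standard errors of edgeR's fit) of the 5 tested lymphoid priming genes in blue and of their relatives and partners in grey, filled where the adjusted p was under 0.05. Satb1, Ikzf3, Id1 and Id2 are filled on the higher side, and Jak3, Stat5a, Crlf2 and Cish, genes of cytokine receptor signalling, on the lower side.

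Sox4 encodes a factor of the SoxC group that is needed by early B cell progenitors and is also active in stem cells and leukaemias, and lies on chromosome 13 from 28948919 to 28953699. Sox4 had 210.9, 196.1, 206.0 and 160.2 CPM in CML 1, 2, 3 and 5 and 317.0, 24.8, 54.8 and 73.1 CPM in CML-TKI 1 to 4. CML-TKI 1 was higher than every CML library and the other 3 CML-TKI libraries were lower than every one, so the groups overlapped through 1 library. The means were 193 ± 22.9 and 117 ± 135 CPM (SD, n = 4), and the log2 fold change was -0.70 (standard error 0.64, adjusted p = 0.533 by edgeR's quasi-likelihood test). Without CML-TKI 1 the log2 fold change was -1.93 and passed (adjusted p = 0.00535), as it did with limma-voom and sample quality weights (-1.52, adjusted p = 0.0191). CML-TKI 1 was also the library with the highest Id1, Id2 and Id3 and the lowest granulocyte sum of its group, and it lay nearest to the CML libraries on the first principal component. Sox4 is therefore a gene whose direction in CML-TKI 1 was opposite to that in CML-TKI 2, 3 and 4. Its relative Sox12 did not pass (log2 fold change -1.72, adjusted p = 0.226).

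**Figure D3:**
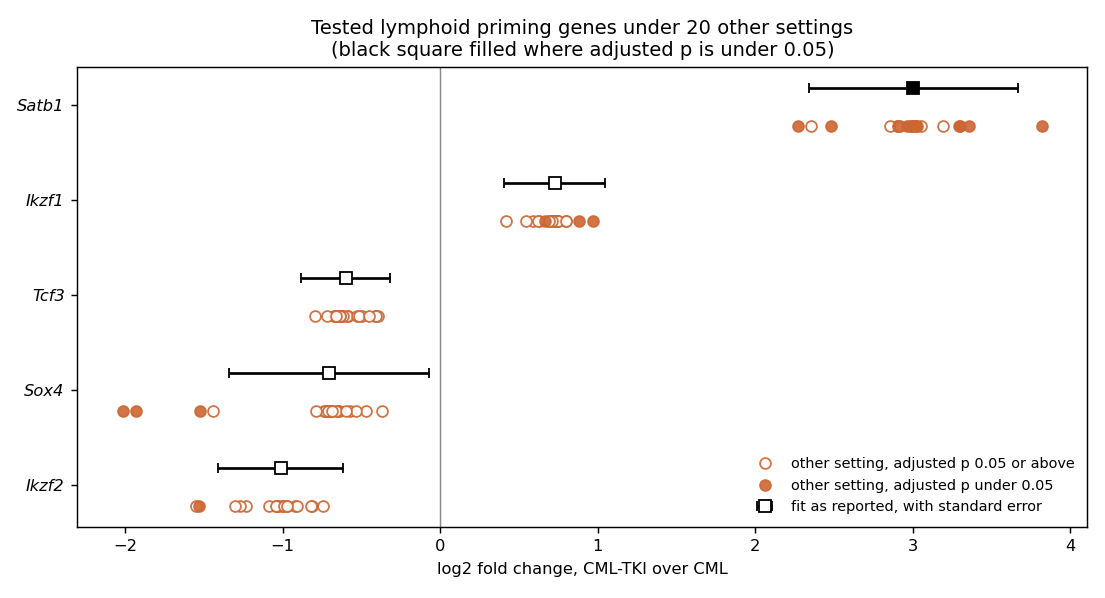
Log2 fold change of CML-TKI over CML (horizontal axis) of the 5 tested lymphoid priming genes in the edgeR fit with all libraries (black squares, bars are standard errors) and in 20 other settings (orange circles), filled where the adjusted p was under 0.05. No gene changed sign, Satb1 lost its call in 7 settings, and Ikzf1 and Sox4 gained a call in 3 each and Ikzf2 in 1.

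Il7r encodes the alpha chain of the receptor for IL-7, the cytokine that supports early B and T cells, and lies on chromosome 15 from 9506159 to 9529941. It had 1, 1, 1 and 0 counts in CML 1, 2, 3 and 5 and 7, 53, 2 and 112 counts in CML-TKI 1 to 4. Every CML library and CML-TKI 3 were thus under the floor of 3 counts that marks detection. In CPM these are 0.136, 0.193, 0.193 and 0, against 1.33, 16.4, 2.19 and 29.1. All CML-TKI libraries were thus higher, with most of the signal in CML-TKI 2 and 4, and with the 2 counts of CML-TKI 3 set aside the separation rests on CML-TKI 1, 2 and 4. Scaled by library size, the ratio of counts between the groups was 109.3, with an exact counting interval from 36.8 to 535.3 that covers counting error only. It was 54.9 without CML-TKI 4 (interval from 17.9 to 273.4) and 174.1 without CML-TKI 1. Il7r was removed by the filter on low counts. When the filter was omitted, it passed the threshold (adjusted p = 0.0161 by edgeR's quasi-likelihood test), and that call was lost when any 1 CML library was left out (adjusted p between 0.0533 and 0.0643), with fitted log2 fold changes between 5.93 and 6.55 against 6.35 with all libraries, but kept without any 1 CML-TKI library (adjusted p between 0.00208 and 0.0433).

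The promoter of Il7r is shown as that of the other member which was higher in every CML-TKI library. The sequence is the single RefSeq window (GRCm38.p6), chr15:9529827-9530126 on the minus strand, again from 250 bases before to 50 after the start, with E-boxes in capitals.
Il7r: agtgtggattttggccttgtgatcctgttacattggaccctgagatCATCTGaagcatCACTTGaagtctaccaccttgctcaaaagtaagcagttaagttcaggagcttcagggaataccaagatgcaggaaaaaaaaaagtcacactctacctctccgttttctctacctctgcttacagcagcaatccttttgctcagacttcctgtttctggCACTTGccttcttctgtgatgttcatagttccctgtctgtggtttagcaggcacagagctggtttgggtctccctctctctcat
It held 3 E-boxes, which began 204, 192 and 34 bases before the start, and 1 match to TTCNNNGAA, the letters that STAT proteins are known to bind. Over the 15 windows that RefSeq gives for 9 of the 10 members (Ikzf2 had none), E-boxes were found in 11, against 72.3% of all 32851 promoter windows of mouse genes. TGGGAA was found in 5 of the 15, against 25.6% of all windows, and TTCNNNGAA in 2 (of Il7r and Ikzf1), against 8.30%. Both strands were searched, and no match to TGGGAA or TTCNNNGAA overlapped an E-box in these windows. The shares among the members were thus close to those of all promoters, and a match is a description of letters, not a binding site.

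The other genes of IL-7 receptor signalling moved the other way or did not pass. The common gamma chain Il2rg (log2 fold change 0.14, adjusted p = 0.865) and the kinase Jak1 (-0.28, adjusted p = 0.602), which are needed by the receptor, did not pass. Of the 8 tested genes in the list, 0 were called higher and 4 lower, where 6.29% and 3.93% of all genes tested were: Cish, a feedback inhibitor induced by STAT5 (log2 fold change -2.46, adjusted p = 0.0262), Stat5a, the transcription factor downstream of the receptor (-1.49, adjusted p = 0.0108), Crlf2, the chain that pairs with the IL-7 receptor in the TSLP receptor (-1.37, adjusted p = 0.0271), and Jak3, the kinase bound to the gamma chain (-1.09, adjusted p = 0.0328), all by edgeR's quasi-likelihood test. Cish had 40.4, 36.3, 43.1 and 53.1 CPM in CML 1, 2, 3 and 5 and 18.6, 3.10, 5.48 and 3.12 CPM in CML-TKI 1 to 4, and its log2 fold change ran from -3.58 to -2.18 over the fits without 1 library. Il7r and these 4 genes thus separated the groups in opposite directions. The median log2 fold change of the list was -1.23 against -3e-04 over all genes tested. Without any 1 CML library 1 gene of the list was called, and without CML-TKI 1 there were 5, while Stat5a kept its call in all 8 fits without 1 library (adjusted p up to 0.0393). JAK and STAT5 genes also serve other cytokine receptors and BCR-ABL itself.

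Rag1 encodes the catalytic part of the recombinase that assembles antigen receptor genes, and lies on chromosome 2 from 101638252 to 101649532. Rag1 had 0.953, 0.386, 0 and 0 CPM in CML 1, 2, 3 and 5 and 0, 1.55, 51.5 and 0 CPM in CML-TKI 1 to 4, or 7, 2, 0 and 0 against 0, 5, 47 and 0 counts. The signal was that of CML-TKI 3. The difference of the means was 12.9 CPM with that library and 0.189 CPM without it. Rag2, the other chain of the recombinase, had at most 3.29 CPM in any library. The list of recombination and end joining genes had 0 called higher and 0 lower among 9 tested (6.29% and 3.93% of all genes tested), with a median log2 fold change of 0.15. At an unadjusted p under 0.05, 1 of them, Dclre1c, which encodes the Artemis nuclease, was higher (log2 fold change 1.40, adjusted p = 0.0746 by edgeR's quasi-likelihood test). DESeq2 called 1 gene of the list higher, limma-voom 1 higher and 1 lower, and edgeR 1 lower without CML-TKI 1 and 1 higher without CML-TKI 3.

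Ebf1 encodes the factor that commits progenitors to the B lineage together with Pax5 and Tcf3, and lies on chromosome 11 from 44618100 to 45008096. Ebf1 had 0.681, 0, 1.35 and 1.10 CPM in CML 1, 2, 3 and 5 and 0.570, 0, 28.5 and 0 CPM in CML-TKI 1 to 4, or 5, 0, 7 and 8 against 3, 0, 26 and 0 counts. As with Rag1, CML-TKI 3 held the signal, and the other CML-TKI libraries had no more than 3 counts each. The difference of the means was 6.48 CPM higher in CML-TKI with that library and -0.60 CPM without it, so that its sign depended on 1 library.

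CML-TKI 3 also held transcripts of the B cell marker list. Cd22 had 122.8 CPM there and at most 2.09 CPM in any other library, and Pax5, the commitment factor, 51.5 CPM against at most 3.23. Ms4a1 (37.3 CPM), Blnk (24.1 CPM), Pou2af1 (13.2 CPM) and Cd79a (12.1 CPM) were highest there as well. Of the 12 genes in the list, 11 were in the table and 1, Cd79b, was tested, without passing (log2 fold change 0.14, adjusted p = 0.862). The summed level ran from 18.01 to 23.96 CPM in the CML libraries and from 20.7 to 22.9 CPM in CML-TKI 1, 2 and 4, and it was 418.7 CPM in CML-TKI 3. Vpreb1 and Igll1, the surrogate light chain genes of early B cells, were at 0 in CML-TKI 3 and Vpreb3 too. Igll1 was at 0 in every library, Vpreb1 in every CML-TKI library and Vpreb3 also in CML-TKI 1 and 4. These zeros thus do not set CML-TKI 3 apart. The same library held 19625 CPM of the haemoglobin gene Hba-a1, against at most 109.8 CPM elsewhere, and it had the fewest counts. By the labels the cells were sorted as Lin-, a gate meant to exclude cells bearing the surface markers of mature lineages. Whether B lineage cells or their RNA were part of that library was not tested.

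**Figure D4:**
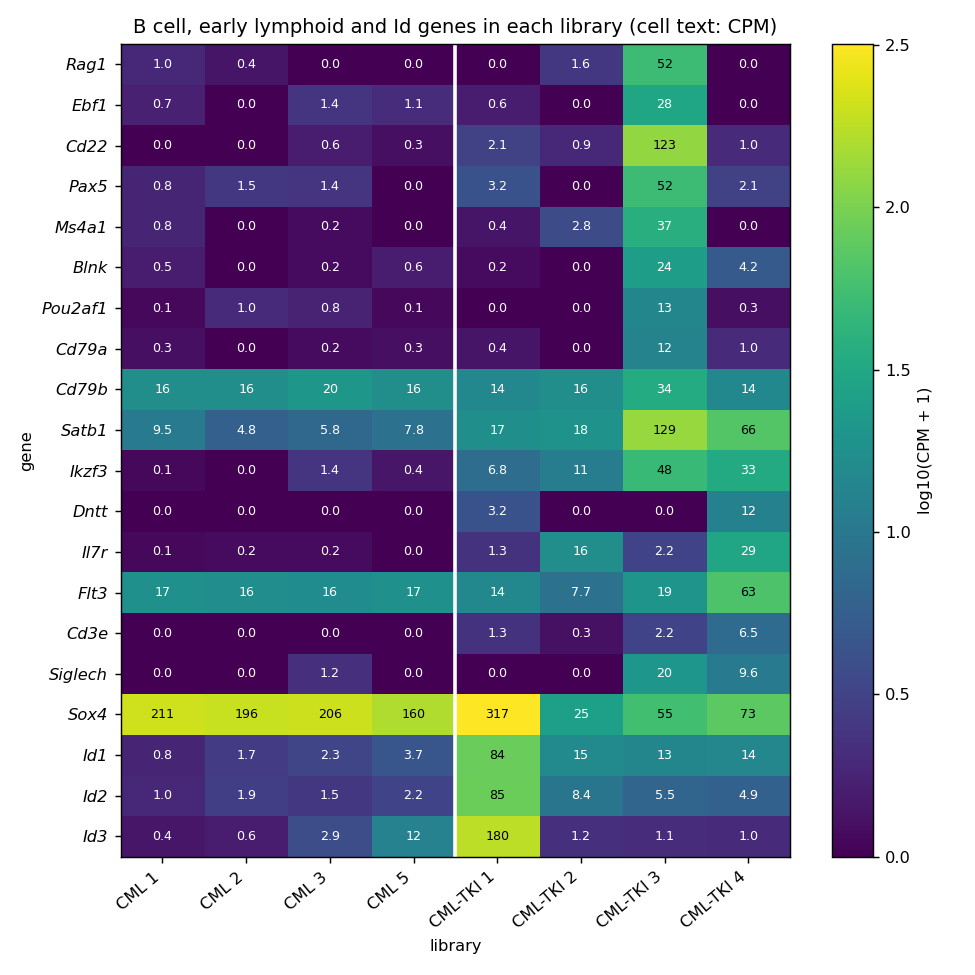
Level of lymphoid priming genes, B cell and other early lymphoid genes and the Id genes (rows) in each of the 8 libraries (columns), coloured by log10(CPM + 1) with the CPM in each cell. CML-TKI 3 stands out for Rag1, Ebf1, Cd22 and Pax5, CML-TKI 4 for Dntt, Il7r and Flt3, and CML-TKI 1 for Sox4, Id1, Id2 and Id3.

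Dntt encodes terminal transferase, which adds untemplated nucleotides at the joints of antigen receptor genes, and lies on chromosome 19 from 41029275 to 41059525. No count of Dntt was found in any CML library, and CML-TKI 1 to 4 had 17, 0, 0 and 45 counts, or 3.23, 0, 0 and 11.7 CPM. Against a floor of 3 counts over the CML group it was at least 38.96-fold higher in CML-TKI, with the signal in 2 of the 4 libraries, and at least 15.1-fold higher without CML-TKI 4. Without the filter on low counts it did not pass (adjusted p = 0.0971 by edgeR's quasi-likelihood test). CML-TKI 4, the library with the most Dntt, was also highest for Il7r and for Flt3, the receptor of lymphoid-primed progenitors, with 63.2 CPM against 7.75 to 18.6 CPM in the other 7 libraries. Flt3 itself did not pass (log2 fold change 0.65, adjusted p = 0.522), and by the labels the cells were sorted without Flt3 protein. Rag1 was at 0 in CML-TKI 4 and Dntt at 0 in CML-TKI 3, so the libraries that held these 2 genes were different ones. Of the 11 genes of the T cell list in the table, 6 had a higher level in CML-TKI 3 than in CML-TKI 4 (Cd3d, Lck, Thy1, Bcl11b, Cd4 and Cd8a) and 5 a lower one (Cd3e, Cd3g, Tcf7, Gata3 and Lat). The list summed to 39.2 to 62.3 CPM in the CML libraries and 22.8, 15.8, 148.0 and 82.7 CPM in CML-TKI 1 to 4. Gata3, a T cell factor also used by stem cells, was the gene of that list called, on the lower side (log2 fold change -2.22, adjusted p = 0.0247), and the call was lost without any 1 CML library, with log2 fold changes between -2.35 and -2.03 over the 8 fits without 1 library. Without CML-TKI 1, 2 genes of the list were called higher and 1 lower, and without CML-TKI 4, 0 higher and 2 lower. Siglech, of plasmacytoid dendritic cells, which can carry Dntt and Rag transcripts, had 19.7 CPM in CML-TKI 3 and 9.63 CPM in CML-TKI 4 and at most 1.16 CPM in the others. Its list had 2 genes called higher (Ly6c2 and Irf8), which monocytes share, and 0 lower among 5 tested by edgeR (6.29% and 3.93% of all genes tested). In that list 1 gene was lower at an unadjusted p under 0.05, and DESeq2 and limma-voom each called 1 lower. The list summed to between 135.6 and 223.4 CPM in CML and between 389.0 and 1121 CPM in CML-TKI. The list of natural killer and innate lymphoid cells had 0 called among 3 tested by edgeR, where 10.2% of all genes tested were. At an unadjusted p under 0.05, 1 gene of the list passed, and DESeq2 and limma-voom each called 1. Its sum was between 42.5 and 50.2 CPM in CML and between 53.0 and 211.5 CPM in CML-TKI, highest in CML-TKI 3. The Lin- gate is meant to exclude mature T cells and other lineage-marked cells, and how completely it did so was not tested. The part of these cell types in the values of Dntt, Il7r, Rag1 and Ebf1 was not tested.

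Ccr9 encodes the chemokine receptor that guides progenitors to the thymus and lies on chromosome 9 from 123767211 to 123783457. Ccr9 had 14, 7, 8 and 0 counts in CML 1, 2, 3 and 5 and 29, 0, 8 and 33 counts in CML-TKI 1 to 4, or 1.91, 1.35, 1.55 and 0 against 5.51, 0, 8.77 and 8.59 CPM. CML-TKI 1, 3 and 4 were higher than all CML libraries, and both groups had a library at 0. Without the filter on low counts it did not pass (adjusted p = 0.339 by edgeR's quasi-likelihood test). Ccr7, another receptor of lymphocyte homing, did not exceed the floor in any CML library or in CML-TKI 1 and 2, and had 9.86 and 9.37 CPM in CML-TKI 3 and 4. In the list of homing receptors, 4 of 6 tested genes were called higher and 0 lower (6.29% and 3.93% of all genes tested), with a median log2 fold change of 1.67 against -3e-04 over all genes. The higher genes included Ccr2 (8.04, adjusted p = 4.62e-04), Cxcr4 (1.90, adjusted p = 0.0208) and Selplg, the selectin ligand (1.44, adjusted p = 0.0270). These 3 genes are also expressed by myeloid cells, and granulocyte and monocyte markers were higher in the same libraries; the part of such cells in these calls was not tested. Of the list, 2 or 3 genes were called without any 1 CML library, and Ccr2 kept its call in all 8 fits without 1 library.

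The wider list of lymphoid-primed progenitor genes was mixed. Of 15 tested, 5 were called higher and 3 lower, with a median log2 fold change of 0.66, against 6.29% and 3.93% of all genes. The higher genes were Nfil3 (log2 fold change 3.66, adjusted p = 0.00220), Cnn3 (3.55, adjusted p = 0.0181), Gfi1 (3.47, adjusted p = 0.00435), Spi1 (1.83, adjusted p = 0.0156) and Notch1 (1.30, adjusted p = 0.0284) by edgeR's quasi-likelihood test. Cnn3 was highest in CML-TKI 1, with 130.1 CPM against 17.0 to 29.1 CPM in CML-TKI 2 to 4, and over the 8 fits without 1 library its log2 fold change ran from 2.41 to 3.86 and its adjusted p up to 0.0616. Of the higher genes, Gfi1 and Spi1 are also known as regulators of granulocytes and monocytes, and Notch1 is the receptor that directs T cell fate. The lower genes were Cd27, a receptor of the tumour necrosis factor family on progenitors (log2 fold change -2.13, adjusted p = 0.00869), Mef2c, a factor that favours lymphoid over myeloid fate (-1.62, adjusted p = 0.0193), and Bcl11a, which is required for B cell development (-1.38, adjusted p = 0.00847). Without CML 1, CML 2 or CML 3, 2 were called higher and 2 lower, and Nfil3, Gfi1, Cd27 and Bcl11a kept their call in all 8 fits without 1 library. The sign of the list's median also changed, to -0.30, when CML-TKI 4 was left out.

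The remaining marker lists were read as the setting of these values, where 6.29% of all genes tested were called higher and 3.93% lower. Monocyte and macrophage markers had 7 of 9 tested genes called higher and 0 lower and summed to between 23.2 and 73.8 CPM in CML and between 364.1 and 1734 CPM in CML-TKI. Megakaryocyte markers had 2 of 7 called lower and 0 higher (1 to 5 lower without 1 library), and summed to between 1640 and 1997 CPM in CML and between 60.7 and 792.2 CPM in CML-TKI. Erythroid markers had 1 of 7 called higher, the transferrin receptor gene Tfrc, and their sum was between 220.7 and 297.4 CPM in CML, between 240.7 and 927.4 CPM in CML-TKI 1, 2 and 4 and 24126 CPM in CML-TKI 3. DESeq2 gave no p for 5 of these 7 erythroid genes, limma-voom called 1 higher and 1 lower, and edgeR called 3 higher without CML-TKI 1, 2 higher without CML-TKI 2, and 2 higher and 2 lower without CML-TKI 4, where the list's median log2 fold change turned from 0.83 to -1.70. Satb1, Ikzf1 and Ikzf3 were highest in CML-TKI 3 as well. Without that library, Satb1 had a log2 fold change of 2.27 and Ikzf3 was still called, and the part of other cells in these values was not tested.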

How the data were processed

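Total RNA of sorted bone marrow cells from 4 CML and 4 CML-TKI samples was sequenced. The authors used the RNeasy Plus mini kit and the Nextera XT protocol, aligned reads with STAR 2.6.1d to mm10 and counted them over RefSeq transcripts in Partek Flow (both tools also stand in the submitters' processing notes, Partek as 8.0). They deposited estimated counts (expected counts per gene, not normalized), 1 column per library, and 0 other per-sample columns were left unused. Symbols of 20 rows had been turned into dates and 5 rows held no count.

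Columns were matched to the labels by group and number, and the column named CML 5, a number that no label gives, was used as a CML library without one. The deposited estimated counts were rounded and fitted with edgeR 4.0.16 in R 4.3.3 on all 8 libraries, with TMM normalization, the quasi-likelihood test and Benjamini-Hochberg adjustment over all 11937 genes at a threshold of 0.05, after filterByExpr had removed low genes (count of at least 10, total of at least 15). CPM are TMM-normalized. A floor of 3 counts marks detection, equal to between 0.348 and 2.88 CPM of the library's total. Counts carry no molecular identifiers, so floors and the 95% interval cover counting error only. Exon lengths came from GENCODE and promoter windows from RefSeq (GRCm38.p6). Counting was not stated to use strand, so overlapping and antisense genes are uncertain.

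The genes named were the 10 members, at most 5 tested genes past the threshold per list and direction, and the direct relatives and partners of members; any other gene was picked after seeing its values. A few genes that this rule names are not reported here. The members and lists were chosen with earlier results of these data known. DESeq2 1.42.0, limma-voom (limma 3.58.1) with sample quality weights, other scalings, filters and sets of libraries were the alternatives. On counts simulated from this comparison (11600 genes, 186 changed 8-fold), edgeR recovered 79.0% with 5.77% of its calls false, DESeq2 89.8% with 21.6% and limma-voom 69.9% with 5.11%. The simulation gave both groups the same spread, whereas that of the data was 28.2% in CML and 68.6% in CML-TKI. The 186 are the changed genes that passed the filter, and tested members other than Satb1 changed by less than 8-fold. These shares may therefore not carry over to the data.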

Additional observations from a re-analysis of the deposited data

Results flagged for a closer look

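In 16 of the 87 measures tested, 1 library lay far from the other 3 of its group. For independent, normally distributed measures about 1 in 20 groups, or 4.3, would be flagged by chance. Several measures here are near 0, and some sums hold genes also measured singly. The 16 against 4.3 therefore does not test for an excess over chance. CML-TKI 3 accounted for 6 of them. Rag1 was at 51.5 CPM there against 0 to 1.55 CPM in the other CML-TKI libraries, Ebf1 at 28.5 against 0 to 0.570, and Pax5 at 51.5 against 0 to 3.23. The B cell markers summed to 418.7 CPM and the erythroid markers to 24126 CPM in that library, and Ikzf5 was at 3.29 CPM against 59.8 to 66.5 CPM in the others.

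CML-TKI 1 accounted for another 6. Sox4 was at 317.0 CPM against 24.8 to 73.1 CPM in the other CML-TKI libraries, Id1 at 83.8, Id2 at 85.3 and Id3 at 179.7 CPM. The granulocyte markers summed to 1475 CPM there against 7947 to 8450 CPM in the others, and the genes of the sort gate to 608.7 CPM against 978.4 to 1046 CPM.

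CML 5 accounted for 3: Tcf3 at 175.4 CPM against 110.0 to 112.5 CPM in CML 1 to 3, Tcf12 at 68.7 against 141.2 to 150.7 CPM, and the summed Ikaros relatives and partners at 990.0 against 1268 to 1324 CPM. In CML 2 the IL-7 receptor pathway summed to 1055 CPM against 1144 to 1162 CPM in the other CML libraries. The causes were not tested.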

How the results depend on the processing

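In all 20 other settings the tested lymphoid priming genes kept their sign, and Tcf3 was called in 0 of them. Of all genes, 1220 were called, against 2157 by DESeq2, 2563 by limma-voom with quality weights, 122 with CML 1 to 3 summed, 2362 without CML 5 and CML-TKI 1, and between 505 and 2504 when each library was left out in turn (505 without CML 1, 552 without CML 2, 570 without CML 3, 808 without CML 5 and 2504 without CML-TKI 1). Of the members, 1 was called, against 2 with no filter on low counts (Satb1 and Il7r), 3 by limma-voom and without CML 5 and CML-TKI 1 (Ikzf1, Satb1 and Sox4), 0 with CML 1 to 3 summed, and between 0 and 3 when each library was left out in turn (0 without CML 1, CML 2, CML 3 or CML 5, and 3 without CML-TKI 1). Without CML-TKI 3, Ebf1 turned from higher to lower, to a difference of -0.60 CPM and, with no filter on low counts, to a log2 fold change of -1.81 (adjusted p = 0.485), and over all libraries left out in turn these ran up to 8.76 CPM and 3.42, both without CML-TKI 4.

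Libraries 1 to 3 of each group share numbers, but the deviations of same-numbered libraries correlated at -0.042, 0.097 and 0.093, so the numbers were not taken as pairs. With the replicate number as a block in these 6 libraries, 193 genes and 0 members were called (Satb1 log2 fold change 2.35, adjusted p = 0.213). Without the block, a fit added after seeing the data, the same libraries gave 589 genes and 1 member, Ikzf2 (log2 fold change -1.53, adjusted p = 0.0358). Of the calls, 61.6% were higher in CML-TKI with all libraries and 46.8% without CML-TKI 1. At 1041552 counts, CML-TKI 3 limits what can be read of the low members. The causes of these shifts were not tested.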
